A study of Mus musculus with 4 samples.

Results

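Messenger RNA levels of 10 genes of glucocorticoid signalling were followed in whole brain of SAMP8 and SAMR1 mice. The genes are the receptors Nr3c1 and Nr3c2, the steroid-activating enzyme Hsd11b1, and the hormone responsive genes Sgk1, Plin4, Tsc22d3, Fkbp5, Zbtb16, Sult1a1 and Ddit4. Every array probe whose accession belonged to one of them was taken. This gave 13 of the 41174 probes of the array, for 8 of the 10 genes. Fkbp5 and Nr3c1 had 3 probes each, Tsc22d3 had 2, and Sgk1, Plin4, Hsd11b1, Sult1a1 and Ddit4 had 1 each. No probe matched Zbtb16 or Nr3c2 by accession, so these genes were not analysed here. The set was chosen in part from the strain ratios of these arrays, those of Sgk1 and Plin4 in particular, so its strain values are a description.

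Corticosterone, the main glucocorticoid of mice, enters cells and binds the glucocorticoid receptor encoded by Nr3c1 and, with higher affinity, the mineralocorticoid receptor encoded by Nr3c2. The unbound glucocorticoid receptor is held in the cytoplasm by a chaperone complex built on Hsp90. The bound receptor moves to the nucleus and attaches to DNA at glucocorticoid response elements, from which it switches many genes on. In brain, this system shapes the stress response, energy use and memory.

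Brain RNA from 3 groups was used. SAMP8 mice, a senescence-accelerated prone strain, received either a diet with added whale meat extract (WME) or the control diet with low safflower oil (LSO), and SAMR1 mice, a senescence-resistant strain, received LSO. Per the labels, both strains have an AKR/J background with suspected outbreeding, so that SAMR1 is a related strain and not an isogenic control. Diets were given for 26 weeks from an age of 24 weeks, and the brains were taken at 50 weeks. Behavioural tests over 8 days had begun at 49 weeks, in all groups. The number of mice behind an RNA, and whether mice were pooled, are not given in the sources used here.

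The RNAs were labelled with the dyes Cy5 and Cy3 and hybridised in pairs to 4 two-colour arrays. Arrays 1 and 2 set WME against LSO within SAMP8, and arrays 3 and 4 set SAMP8 against SAMR1 on LSO. The dyes were exchanged within each pair, so that a pair of arrays measured the same 2 RNAs. It counts as 1 replicate, no test was possible, and the SD given with a log2 ratio is over the 2 dye orientations and measures technical error only. A gene was called when both arrays of a pair put it beyond 1.5-fold on the same side. A level below is a normalised spot intensity, which compares RNAs on one probe and not probes with each other. Values of both pairs rest on SAMP8 LSO RNA, taken from the labels to be the same RNA, so the pairs are not independent. A gene chosen for a low SAMP8 LSO level can show a higher diet ratio through that choice. The diet values of the set are therefore a description too.

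Of the probe spots on an array, 81.4% to 85.6% exceeded background clearly in either dye, with 0 saturated. All 13 probes were well above background in both RNAs on both arrays of each pair. Neuronal markers were read beside the tissue label, and 6 of 6 were measured. Their summed intensities were 374085 to 408835 in SAMP8 WME, 359127 to 403612 in SAMP8 LSO and 383386 to 394647 in SAMR1 LSO. Since 6 of 6 kidney markers were measured as well, being measured does not establish the tissue. In whole brain RNA, fewer cells of a type and less RNA per cell cannot be told apart.

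The promoter windows of 4 genes are shown because the strain ratios of Sgk1, Plin4, Sult1a1 and Tsc22d3 were the lowest of the set. Sgk1 and Tsc22d3 have several windows, and the window shown for each was chosen because it holds a motif match. The other Tsc22d3 windows held no match, and the other Sgk1 windows did not hold the 15-letter motif described below. Each runs from 250 bases before to 50 bases after a transcription start site in the RefSeq annotation of GRCm38.p6. The windows lie at chr10:21993640-21993939 (plus strand) for Sgk1, chr17:56109733-56110032 (minus strand) for Plin4, chrX:140600473-140600772 (minus strand) for Tsc22d3 and chr7:126676369-126676668 (minus strand) for Sult1a1. In Sgk1, capitals mark a palindromic motif of 15 letters, the consensus of a glucocorticoid response element, which is AGAACA, then 3 bases of any kind, then TGTTCT. In the other windows they mark AGAACA, its 6-letter arm, on either strand (TGTTCT where it lies on the other strand).
Sgk1: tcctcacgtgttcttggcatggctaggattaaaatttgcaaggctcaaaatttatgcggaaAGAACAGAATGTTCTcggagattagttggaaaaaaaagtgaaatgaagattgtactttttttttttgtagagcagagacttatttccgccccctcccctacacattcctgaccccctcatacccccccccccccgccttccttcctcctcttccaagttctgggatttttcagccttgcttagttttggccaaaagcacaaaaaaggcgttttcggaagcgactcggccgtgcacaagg
Plin4: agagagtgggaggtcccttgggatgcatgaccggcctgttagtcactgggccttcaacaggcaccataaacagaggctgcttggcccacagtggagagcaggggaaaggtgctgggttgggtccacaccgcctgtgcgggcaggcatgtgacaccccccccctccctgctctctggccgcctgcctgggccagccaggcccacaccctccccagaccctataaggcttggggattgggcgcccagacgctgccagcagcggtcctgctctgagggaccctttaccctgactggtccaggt
Tsc22d3: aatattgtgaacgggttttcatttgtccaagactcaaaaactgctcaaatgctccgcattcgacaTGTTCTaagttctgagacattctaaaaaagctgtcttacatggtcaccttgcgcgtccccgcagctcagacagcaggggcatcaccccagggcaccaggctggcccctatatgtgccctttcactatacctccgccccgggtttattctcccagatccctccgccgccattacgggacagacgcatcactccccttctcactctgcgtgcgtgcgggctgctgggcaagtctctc
Sult1a1: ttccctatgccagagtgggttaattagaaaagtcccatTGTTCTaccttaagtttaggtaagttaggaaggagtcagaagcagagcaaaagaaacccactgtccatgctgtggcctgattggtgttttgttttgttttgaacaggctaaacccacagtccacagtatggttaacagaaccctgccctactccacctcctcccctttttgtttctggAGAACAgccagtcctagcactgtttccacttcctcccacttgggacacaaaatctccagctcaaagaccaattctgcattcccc

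The 15-letter motif occurred in 3 of 32851 promoter windows of the mouse table (0.00913%), and Sgk1 was the member among them. Its match, from base 21993701 to base 21993715 of chromosome 10, begins 189 bases before the start site of the window. Sgk1 has 6 start sites in the table, and the motif also lies 965 bases before the last of them. The other windows belonged to Acnat2, whose probe was not well above background, and Gm35041, for which no probe was found. A looser motif of 13 letters inside it (GNACA, 3 bases of any kind, TGTNC) occurred in 156 windows (0.475%), again with Sgk1 as the member. Among 54 measured genes with that motif, the median strain log2 ratio was −0.01 and 1 gene, Sgk1 itself, was called lower.

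The arm AGAACA was common, in 6233 windows (19.0%). It occurred in 5 of the 15 windows of the set, in Sgk1, Sult1a1 and Tsc22d3. The windows of Plin4, Fkbp5, Ddit4, Hsd11b1 and Nr3c2 held no match, and no window was found for Nr3c1 or Zbtb16. A match or its absence in so short a window describes the letters there and not binding of a receptor.

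The glucocorticoid receptor gene Nr3c1, the first member, had nearly equal levels in all 3 RNAs. Its brightest probe gave intensities of 1444 and 1401 in SAMP8 WME, against 1434 and 1326 in SAMP8 LSO. The diet log2 ratio was 0.04 ± 0.05 (SD, 2 arrays of 1 RNA pair), and its other probes stood at 0.06 ± 0.07 and −0.01 ± 0.12. The levels of the RNAs overlapped. In the strain pair the same probe gave 1328 and 1382 in SAMP8, against 1277 and 1380 in SAMR1, a log2 ratio of 0.03 ± 0.04. The other probes stood at 0.06 ± 0.00 and −0.01 ± 0.15, so that all 3 probes lay within 0.1 of 0 in both comparisons under loess normalisation. With each array centred on its median instead, the diet ratio of the brightest probe was 0.18.

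Hsd11b1 encodes the enzyme that regenerates active corticosterone from its inert keto form inside cells. It had intensities of 6185 and 6049 in SAMP8 WME, against 6656 and 6134 in SAMP8 LSO, a log2 ratio of −0.06 ± 0.06. These levels overlapped. In the strain pair it had 6322 and 6783 in SAMP8, against 7669 and 7564 in SAMR1, a log2 ratio of −0.22 ± 0.09. Both SAMP8 values were below both SAMR1 values, and the difference was short of a call.

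Sgk1 encodes a serine/threonine kinase that corticosteroids induce and that regulates ion channels and transporters. Its level was lower in SAMP8 than in SAMR1 on LSO, with intensities of 8581 and 8520 in SAMP8, against 14922 and 14084 in SAMR1. The groups lay far apart, with little spread between the arrays. The log2 ratio was −0.76 ± 0.05, which is 1.70-fold lower in SAMP8 (−0.80 and −0.73 on the single arrays), and the gene was called. In the diet pair Sgk1 had 9515 and 9424 in SAMP8 WME, against 8208 and 8030 in SAMP8 LSO. Both WME values were above both LSO values, with a log2 ratio of 0.22 ± 0.01 that was short of a call. With each array centred on its median in place of loess, this ratio was 0.41, so the SD does not cover the choice of normalisation. Over the 3 RNAs, Sgk1 was highest in SAMR1 LSO, next in SAMP8 WME and lowest in SAMP8 LSO, with no overlap between the levels, although arrays of different pairs were normalised separately.

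Plin4 encodes perilipin 4, a lipid droplet coat protein found in fat and muscle. Its intensities were 777 and 879 in SAMP8, against 2293 and 2311 in SAMR1. The SAMP8 levels were well below those of SAMR1 on both arrays. The log2 ratio of −1.48 ± 0.12 was the lowest of the set, 2.79-fold lower in SAMP8 (−1.56 and −1.40 on the single arrays), and was called. On the diet arrays Plin4 had 946 and 948 in SAMP8 WME, against 753 and 879 in SAMP8 LSO. WME was higher on both arrays, but the log2 ratios of 0.33 and 0.11 differed from each other, with a mean of 0.22 ± 0.15 that was not called. The 4 SAMP8 LSO values, 2 from each separately normalised pair, ran from 753 to 879.

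Tsc22d3 encodes GILZ, a leucine zipper protein induced by glucocorticoids that restrains inflammatory transcription. Its brightest probe had 5424 and 6369 in SAMP8, against 7504 and 7241 in SAMR1. SAMP8 was lower on both arrays, with a log2 ratio of −0.33 ± 0.20, and the second probe gave −0.35 ± 0.22. In the diet pair it had 5920 and 6576 in SAMP8 WME, against 6083 and 5178 in SAMP8 LSO. These levels overlapped and the arrays had opposite signs, −0.04 and 0.34, with a mean of 0.15 ± 0.27.

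Fkbp5 encodes a cochaperone of the receptor complex that lowers hormone binding and is itself induced by the receptor. Its brightest probe had 337 and 466 in SAMP8, against 365 and 425 in SAMR1. The levels overlapped and the arrays disagreed in sign, with a mean log2 ratio of 0.01 ± 0.18. The other probes gave −0.12 ± 0.07 and −0.10 ± 0.06, below 0 on both arrays. With diet, the brightest probe had 414 and 524 in SAMP8 WME, against 387 and 493 in SAMP8 LSO. WME was the higher RNA on both arrays, at 0.09 ± 0.01, and the other probes stood at 0.10 ± 0.11 and 0.15 ± 0.03. All 3 probes were above 0 on both diet arrays, by amounts far short of a call.

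Sult1a1 encodes a sulfotransferase of phenols and steroids. Its intensities were 2249 and 2276 in SAMP8, against 3161 and 3093 in SAMR1. SAMP8 was lower on both arrays and the levels did not overlap, at a log2 ratio of −0.47 ± 0.03 or 1.38-fold lower. In the diet pair the gene had 2280 and 2272 in SAMP8 WME, against 2421 and 2208 in SAMP8 LSO. These overlapped, with a log2 ratio of −0.02 ± 0.09.

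Ddit4 encodes REDD1, an inhibitor of the mTOR complex induced by stress, low oxygen and glucocorticoids. It had the highest strain ratio of the set. Its intensities were 26500 and 28413 in SAMP8, against 19479 and 20111 in SAMR1. The levels did not overlap, with a log2 ratio of 0.47 ± 0.04, which is 1.39-fold higher in SAMP8 and short of a call. In the diet pair Ddit4 had 26858 and 26721 in SAMP8 WME, against 27268 and 26620 in SAMP8 LSO, a log2 ratio of −0.01 ± 0.02.

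**Figure D1:**
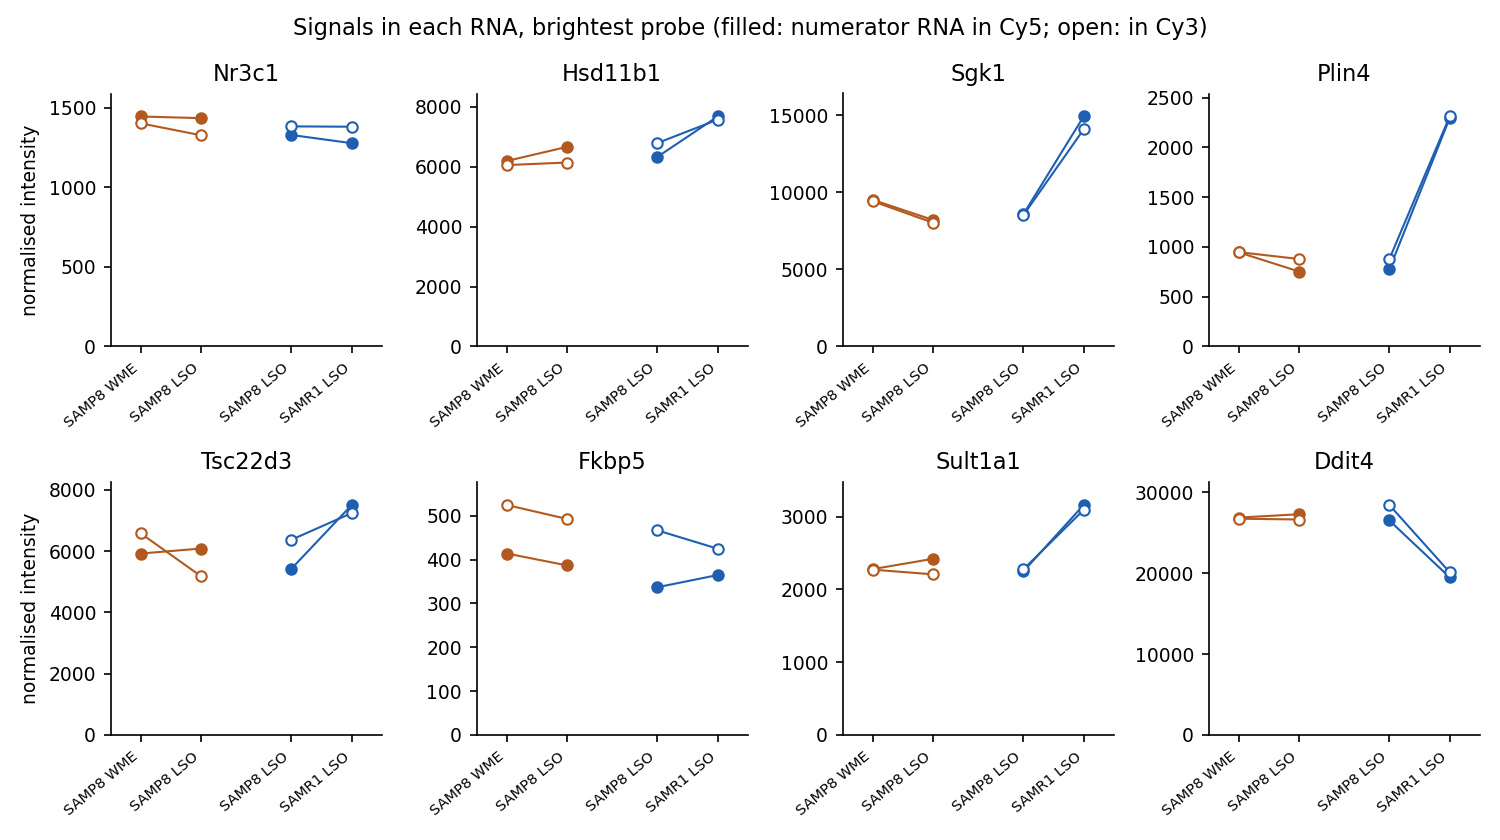
Normalised intensity of the brightest probe of each of the 8 genes (y axis, linear, one scale per gene) in the RNAs of the diet pair (orange, SAMP8 WME and SAMP8 LSO) and of the strain pair (blue, SAMP8 LSO and SAMR1 LSO). Points are single arrays and lines join the RNAs of one array; filled points have the first RNA in Cy5 and open points in Cy3. Plin4 and Sgk1 are steepest in the strain pair, at 777 and 879 in SAMP8 against 2293 and 2311 in SAMR1 for Plin4.

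**Figure D2:**
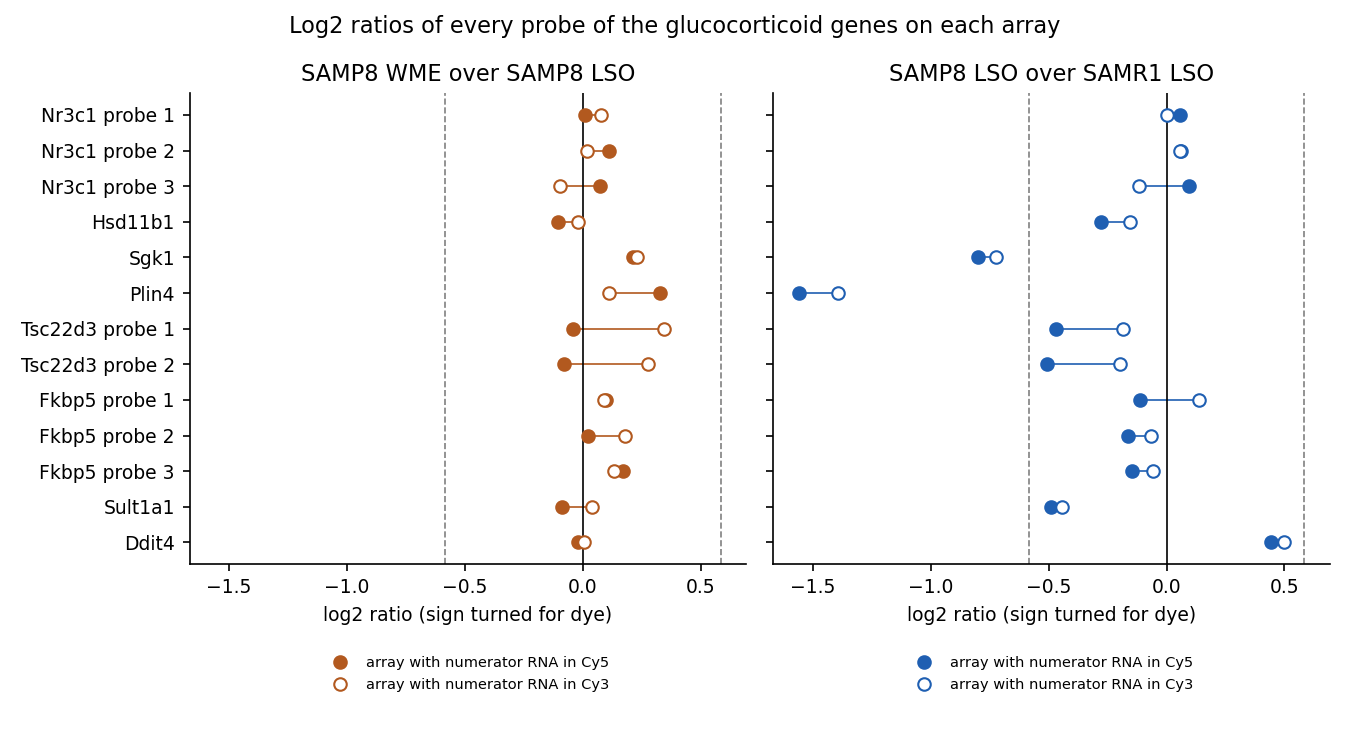
Log2 ratios of all 13 probes on each array, with the sign turned for dye, for SAMP8 WME over SAMP8 LSO (left) and SAMP8 LSO over SAMR1 LSO (right). Each probe has a point for either dye orientation, and dashed lines mark 1.5-fold. On the right, Sgk1 and Plin4 lie beyond the line on both arrays, and on the left no probe does.

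Set against all features, 0 of the 8 genes were called in the diet comparison, where 0.0862% of 26667 measured features were called (0.0562% higher, 0.03% lower). Of these calls 65.2% were higher, against 19.2% of the calls without array 1 and 80.2% without array 2. In the strain comparison 2 of 8 were called lower and 0 higher. There 1.46% of 26939 features were called, 0.494% lower and 0.969% higher. The genes were chosen with these strain ratios known, so the share is not read further. Sgk1 was nearest the threshold among the genes inside it, at 1.70-fold, and Ddit4 (1.39-fold) and Sult1a1 (1.38-fold) were nearest among those outside. At a lower threshold of 1.3-fold, Sult1a1 joined the lower genes and Ddit4 was higher, against 2.79% of all features (0.98% lower, 1.81% higher), while the diet count remained 0, against 0.157%.

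The median log2 ratio of the 8 genes was −0.27 in the strain comparison, where all features had a median of −0.01. By sign, 5 genes were below 0 on both strain arrays and 2 above, where 26.7% of features were below and 23.9% above. In the diet comparison the median was 0.07, against 0.00 over all features. It was −0.0057 without array 2 and 0.085 without array 1. Under loess 4 genes, Sgk1, Plin4, Fkbp5 and Nr3c1, were above 0 on both arrays and 1, Hsd11b1, was below on both, where 20.5% of features were above and 17.6% below. Centring each array on its median in place of loess gave a diet median of 0.19, with 7 genes above 0 on both arrays and 0 below, and Hsd11b1 at 0.12. In that setting neuronal markers stood at 0.21, with 4 of 6 above 0 on both arrays in place of 0, and all features at 0.07. The share of all features by sign was not computed in that setting. By rank, 21 of 26939 features had a lower strain ratio than Plin4 and 98 had a lower one than Sgk1. In the diet comparison 26556 of 26667 features had a lower ratio than Sgk1 and 26554 a lower one than Plin4, although neither was called. Both genes were chosen for low strain ratios, and SAMP8 LSO RNA enters both comparisons, so their diet ranks are a description too. The SD of the log2 ratio over features was 0.083 in the diet comparison and 0.20 in the strain comparison, so that equal ratios take different ranks in them.

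**Figure D3:**
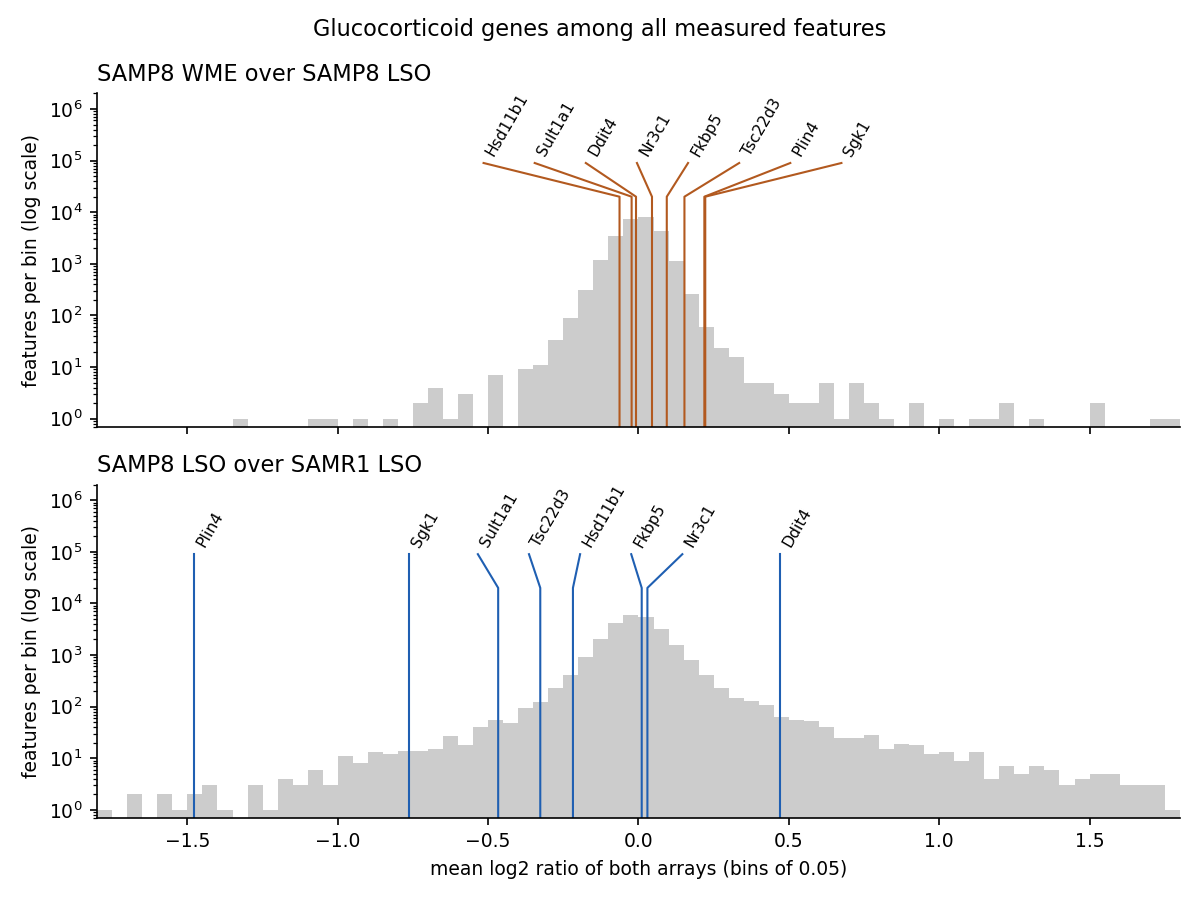
Distribution of the mean log2 ratio over all measured features (grey, bins of 0.05, number of features on a log scale) with the brightest probe of each of the 8 genes as a line. Top, SAMP8 WME over SAMP8 LSO, with the genes between −0.06 and 0.22; bottom, SAMP8 LSO over SAMR1 LSO, with Plin4 at −1.48 and Sgk1 at −0.76. The x axis ends at 1.8 on either side.

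The ratio of SAMP8 WME to SAMR1 LSO, which no array measured, was taken as the sum of the diet and strain log2 ratios. A gene was called when all 4 combinations of a diet and a strain array passed 1.5-fold. Plin4 was the 1 gene called, at −1.26 or 2.39-fold lower in SAMP8 WME (combinations −1.45 to −1.07). Over all features, 1.14% of 26395 were called in the sum, 0.383% lower. Sgk1 stood at −0.54, or 1.45-fold lower, with combinations from −0.58 to −0.49 that all fell short of 1.5-fold. At 1.3-fold the indirect call took in Plin4, Sgk1, Sult1a1 and Ddit4, against 2.11% of all features. Sult1a1 stood at −0.49 and Hsd11b1 at −0.28, below 0 in all 4 combinations. Ddit4 stood at 0.46 and the brightest Nr3c1 probe at 0.07, above 0 in all 4, while another Nr3c1 probe stood at −0.02 with combinations from −0.22 to 0.17. For Tsc22d3 (−0.17) and Fkbp5 (0.10) the combinations fell on both sides of 0.

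**Figure D4:**
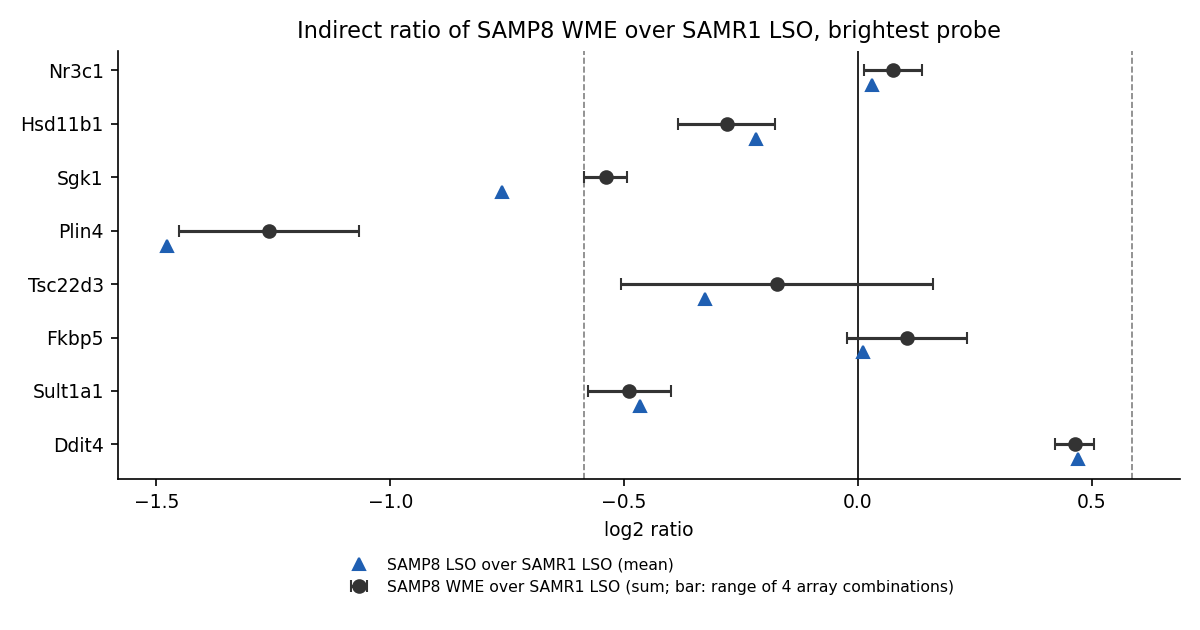
Indirect log2 ratio of SAMP8 WME over SAMR1 LSO for the brightest probe of each gene (black circles, the sum of both pairs; bars, the range over 4 combinations of arrays), with the measured ratio of SAMP8 LSO over SAMR1 LSO (blue triangles). Dashed lines mark 1.5-fold. Plin4 lies at −1.26 beyond the line, and Sgk1 at −0.54 has a bar that ends at it.

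Other genes of the pathway were read by the same rule. Of 14 genes of the receptor complex and its coregulators, 0 were called in either comparison, with medians of 0.04 in both. Under median centring the medians were 0.21 with diet, with 8 of 14 above 0 on both arrays in place of 3, and −0.03 between strains. Counts by sign under median centring, here and for the lists below, have no share of all features beside them. Neuronal markers had 4 of 6 above 0 on both diet arrays in that setting, in place of 0. Ncoa3, a coactivator of nuclear receptors, had the largest diet ratio (0.18 ± 0.23), with its other probes at 0.01 and 0.10. Stip1, the cochaperone that links Hsp70 and Hsp90, followed (0.11 ± 0.43, with opposite signs on its arrays). Hsp90ab1, the constitutive Hsp90, had the largest strain ratio, with intensities of 55355 and 62209 in SAMP8 against 45485 and 44197 in SAMR1. Its log2 ratio was 0.39 ± 0.15, and its second probe stood at 0.53. Ncoa2, another coactivator, followed at −0.15 ± 0.03, with its other probes at −0.07 and 0.08.

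Of the genes for steroid synthesis, conversion and transport, 0 of 11 measured were called with diet, where Abcb1a (−0.09 ± 0.19) and Hsd11b2, which inactivates corticosterone, had the largest ratios. The Hsd11b2 probe was not well above background in SAMP8 LSO, so that its ratio has only a bound there. In the strain comparison 3 of 10 were called higher and 0 lower. Abcb1a, the efflux pump of the blood-brain barrier that carries steroids, had intensities of 487 and 568 in SAMP8, against 129 and 142 in SAMR1, a log2 ratio of 1.96 ± 0.06. Akr1c14, which reduces steroid ketones, stood at 1.00 ± 0.04. Abcb1b, the second such pump, stood at 0.82 ± 0.21 with its other probes at −0.08 and 0.42, so that the call rests on 1 probe. The 2 pumps are close in sequence, and how far their probes distinguish them was not tested.

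Of 11 measured stress axis genes, Pomc, the precursor of corticotropin, was the 1 called with diet. It had 6401 and 6154 in SAMP8 WME, against 1751 and 1953 in SAMP8 LSO, a log2 ratio of 1.76 ± 0.15. In the strain pair 0 of 11 were called and Pomc stood at −0.13 ± 0.00, with 1643 and 1666 in SAMP8 against 1791 and 1821 in SAMR1. The largest strain ratios were those of the vasopressin receptor Avpr1a (−0.39 ± 0.03, called lower with processed signals) and of vasopressin itself, Avp (−0.36 ± 0.03). The Avpr1a probe was dim, with 92 and 94 in SAMP8 against 119 and 125 in SAMR1. Avp had 3402 and 3494 in SAMP8, against 4423 and 4406 in SAMR1, with no overlap. Crh, the hypothalamic releasing hormone, had no matched probe.

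Of 29 measured other genes known to be induced by glucocorticoids, 0 were called in either comparison. Their medians were −0.01 with diet and −0.08 in the strain comparison, where 11 were below 0 on both arrays and 5 above. Under median centring they were 0.17 with diet, with 16 of 29 above 0 on both arrays in place of 4, and −0.18 between strains, with 14 below. Neuronal markers stood at 0.21 with diet in that setting, and all features at 0.07. Mfsd2a, a lipid transporter of brain endothelium, had the lowest strain ratio, with 2932 and 3331 in SAMP8 against 4724 and 4695 in SAMR1. Its levels did not overlap, and its log2 ratio was −0.59 ± 0.14 with 1 array short of 1.5-fold, and it was called lower under median centring. Dusp1, a phosphatase of MAP kinases, had the highest, 0.52 ± 0.25, and with diet it had the lowest, −0.47 ± 0.26. Cdkn1a, an inhibitor of the cell cycle, had the highest diet ratio (0.19 ± 0.12).

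Of 12 measured genes of aldosterone action and sodium transport, which include substrates of the Sgk1 kinase, 0 were called in either comparison. The medians were 0.00 with diet and −0.01 between strains, and under median centring 0.11, with 7 of 12 above 0 on both arrays in place of 1, and −0.08. Wnk1, a kinase upstream of ion cotransporters, stood at 0.36 ± 0.06 between strains with its other probes at 0.23 and 0.24. With diet the largest ratios were those of Nedd4l, a ubiquitin ligase that Sgk1 phosphorylates (0.13 ± 0.03), and Wnk1 (−0.09 ± 0.07). Of 14 genes around mTOR inhibition, 0 were called either. Ddit4 (0.47) and Eif4ebp1, a repressor of translation that mTOR phosphorylates (−0.46 ± 0.31, other probe −0.24), had the largest strain ratios. With diet these were Rptor, a subunit of mTOR complex 1 (−0.07 ± 0.01), and Eif4ebp1 (0.06 ± 0.16).

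**Figure D5:**
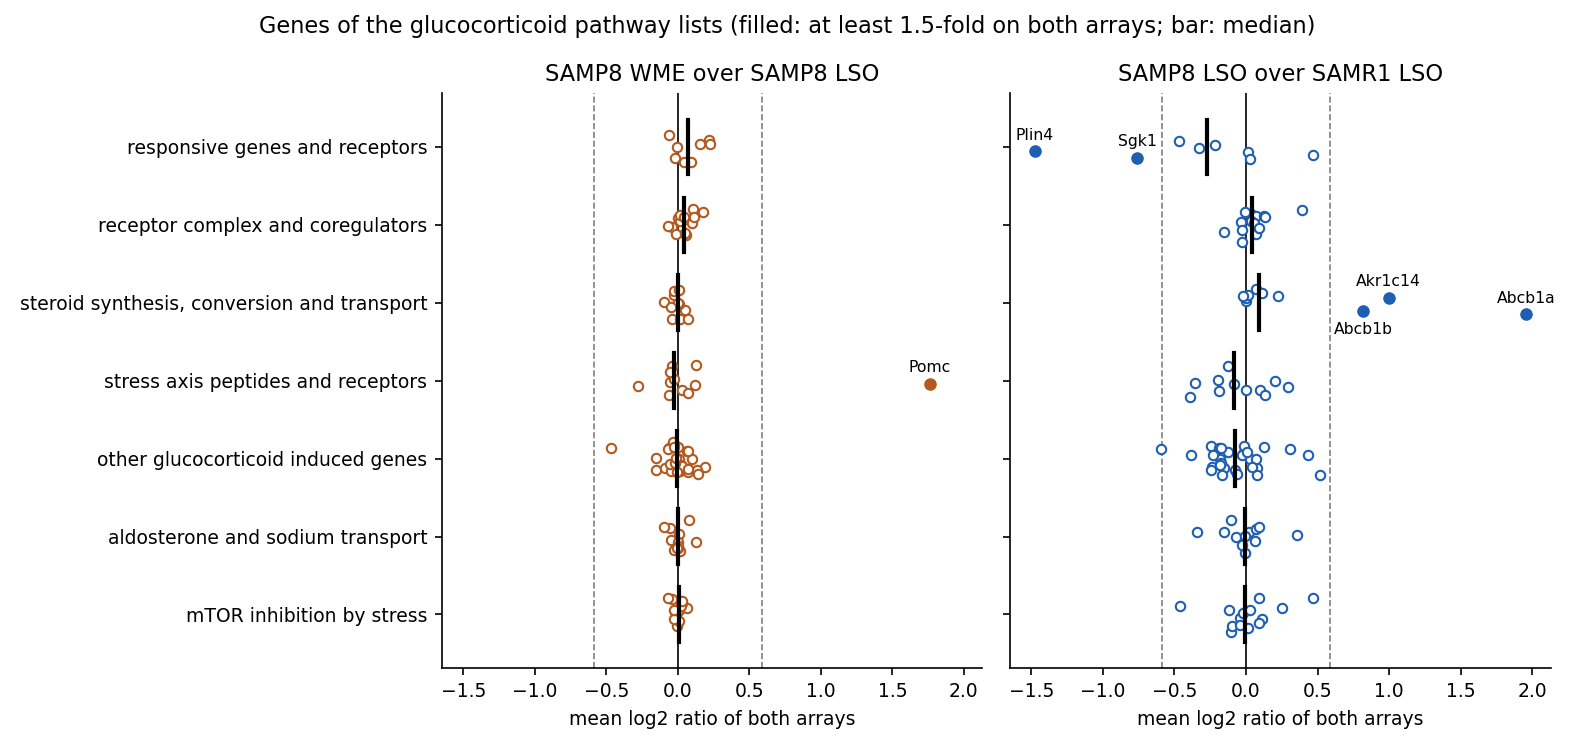
Mean log2 ratio of both arrays for each measured gene of 7 lists (rows), for SAMP8 WME over SAMP8 LSO (left) and SAMP8 LSO over SAMR1 LSO (right). Filled points were at least 1.5-fold on both arrays, black bars are list medians and dashed lines mark 1.5-fold. Pomc at 1.76 is the filled point on the left, and Plin4, Sgk1, Abcb1b, Akr1c14 and Abcb1a are filled on the right.

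The genes whose ratios over the 4 arrays were nearest to those of Sgk1, by Euclidean distance among 14351 named genes, were Kirrel2 (0.232), Thbs4 (0.246), Ccl17 (0.256), Rpp25 (0.256) and Stard3nl (0.278). Their strain log2 ratios ran from −0.83 for Thbs4 to −0.65 for Rpp25, and their diet ratios, from 0.04 to 0.11, were all below the 0.22 of Sgk1. Nearest to Plin4 were Morn2 (0.269), Mrpl41 (0.395), Prl2c5 (0.395), Prdm16 (0.429) and Capg (0.490). Their strain ratios ran from −1.58 for Mrpl41 to −1.37 for Capg, and their diet ratios from −0.04 to 0.08. Prl2c5 has near-identical relatives, so its value is uncertain. The choice of neighbours rests on the same 4 arrays, so that it is a description.

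Markers of other cell types also differed between the RNAs. Between strains, 3 of 6 mural cell markers (Pdgfrb, Rgs5 and Kcnj8) were called higher in SAMP8, with summed intensities of 31467 and 33841 in SAMP8 against 23301 and 25025 in SAMR1. By sign, 5 mural markers were above 0 on both arrays and 1 was below. The meningeal fibroblast markers Col3a1, Col1a1 and Col1a2 and 1 more of the 6 were called higher (the last not under median centring), with sums of 21393 and 22866 in SAMP8 against 15617 and 15538 in SAMR1. The calls of Col3a1 and Col1a1 rest on 1 probe, since the second Col3a1 probe stood at −0.01 and the other Col1a1 probes stood at 0.17 and 0.48. Endothelial markers had 5 of 6 above 0 on both arrays and 0 called (33839 and 34278 in SAMP8, 31053 and 32135 in SAMR1). Choroid plexus markers, by contrast, were all 6 below 0 on both strain arrays with 0 called. Their sums were 14195 and 14339 in SAMP8, against 16286 and 16717 in SAMR1. Of 5 measured blood markers, S100a8 and S100a9 were called higher in SAMP8, with sums of 46733 and 46861 in SAMP8 against 33950 and 35132 in SAMR1. The part of these cell types in the ratios of Sgk1, Plin4 and the pumps was not tested.

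In the diet pair, Kap (4.44 ± 0.92) and Slc34a1 (1.21 ± 0.59) of 6 kidney markers were called higher, and the sums were 7235 and 7440 in SAMP8 WME against 3018 and 3483 in SAMP8 LSO. Kap was called lower in the strain pair (−3.00 ± 0.07), where the sums were 2761 and 3722 in SAMP8 against 3154 and 4105 in SAMR1. By sign, 3 of the 6 kidney markers were below 0 on both strain arrays and 1 was above, with ratios up to 0.43. Of 5 measured pituitary markers, Pomc was called higher with diet, and the sums were 7888 and 7995 in SAMP8 WME against 3134 and 3739 in SAMP8 LSO. Pomc alone made up most of these sums, with 6401 and 6154 against 1751 and 1953, so they mainly restate its ratio. By sign, 4 of the 5 were above 0 on both diet arrays, where 20.5% of all features were. S100a8 (−0.80 ± 0.12) and S100a9 (−1.09 ± 0.06) were called lower with diet, with blood marker sums of 40478 and 35730 in SAMP8 WME against 42575 and 44120 in SAMP8 LSO. All 5 blood markers were below 0 on both diet arrays. So were 4 of 6 meningeal fibroblast (median −0.19), 4 of 6 endothelial (−0.10) and 3 of 6 mural markers (−0.08), with 0 called. Above 0 on both were 0, 0 and 1 of these 3 lists, and 17.6% of all features were below. Under median centring the 3 medians were −0.02, 0.01 and 0.07. The part of all these markers in the diet ratios of Sgk1 and Plin4 was not tested. Of 4 measured liver markers, Cyp2e1 was called higher with diet, its probe not well above background in SAMP8 LSO, and not under median centring, and 0 of 3 were called between strains, where Cyp2e1 was called lower in SAMP8 with processed signals. Neuronal, astrocyte, oligodendrocyte and microglial markers had 0 called in either comparison, with medians between −0.10 and 0.10, and with diet medians between 0.10 and 0.27 under median centring. The medians cover unlike genes. Between strains the 6 astrocyte markers ran from −0.06 to 0.55, with 3 above 0 on both arrays and 2 below.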

How the data were processed

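Each two-colour array was read from a deposited scanner file. Per the file headers, the authors extracted its spot intensities with Agilent's program Feature Extraction, version 11.0.1.1. The log10 ratios that this program gave were used only for a check. Their largest difference from the log10 ratio of its processed signals was between 0.04 and 0.20 on an array, so the 2 were not equal at every spot. The deposited series table holds log2 ratios. They matched the red to green ratio of the processed signals on every array (largest difference 5e-09), so it is neither turned for dye nor centred again. 0 columns of sample values were left unused.

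Median intensities were background-corrected with normexp (offset 50, which draws ratios of dim probes towards 0) and normalised by loess within each array in limma 3.58.1 (R 4.3.3). Outlier spots (105 to 123 per array) were left out and spots of a probe averaged. Ratios of swapped arrays were turned and averaged. All 4 arrays lay on 1 slide. The median signal of an array was between 275 and 321 for Cy3 and between 306 and 357 for Cy5, and the number of arrays limits the precision.

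Probes were named by RefSeq accession through a GRCm38.p6 gene table, used for names only because the files carry coordinates of an older build. In all 23374 of 41174 probes were named so, 10 by symbol, and 17790 had no match. A gene stands for its brightest probe, and counted as measured when well above background in at least 1 RNA on both arrays.

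The members and lists were chosen with earlier results of these data known. Named genes are all members with all probes, the called genes of each list (up to 6, or 3 for marker lists, by size), the 2 with the largest ratios where none was called, and the 5 genes nearest to each called member. The result of 1 gene that the rule names is not reported here. Pomc in the strain pair, Acnat2, Gm35041, Lcn2, the markers whose calls changed with processed signals and the genes without a probe were named after their values were seen. Alternatives were processed signals, median centring, offset 16, stricter and no filters, the median over probes, a 1.3-fold threshold, kept outlier spots and single arrays. On simulated arrays of 41174 probes, 50 of 50 probes changed 4-fold were called in either comparison. Of 50 changed 2-fold, 49 were called in the diet and 50 in the strain simulation, and of 50 changed 1.5-fold, 12 and 4. The simulation kept the measured level and dye term of each probe and added a small noise of fixed size. Only probes above a set level were changed. These counts therefore depend on the noise chosen and do not cover dim probes.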

Additional observations from a re-analysis of the deposited data

How the results depend on the processing

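Sgk1 and Plin4 stayed called lower in SAMP8 under every alternative run, at −0.84 to −0.73 and −1.58 to −1.40, and 0 of 8 genes were called with diet throughout. At 1.3-fold, 4 genes were called in the strain comparison and 4 in the indirect ratio. The median diet ratio of the 8 genes was 0.19 under median centring, where all features had a median of 0.07, and neuronal markers and the receptor complex list stood at 0.21, above the 8 genes. There the diet ratios of Ddit4 (0.21), Sult1a1 (0.14) and Hsd11b1 (0.12) turned positive and the strain ratio of Nr3c1 stood at −0.0041. The diet ratios of Sgk1 (0.41), Tsc22d3 (0.34), Plin4 (0.32), Nr3c1 (0.18) and Fkbp5 (0.14) were higher than under loess. Under loess they were 0.22, 0.15, 0.22, 0.04 and 0.09, in that order. The strain ratio of Fkbp5, near 0, was −0.10 by the median over its probes and −0.018 with processed signals. With single arrays the diet median ran from −0.0057 (without array 2) to 0.085 (without array 1) and the strain median from −0.37 to −0.17, with 2 strain calls and 1 indirect call each time. Over all features, the calls numbered 103 with diet and 756 between strains with processed signals, and 42 and 752 at 1.3-fold, against 23 and 394. With single arrays they numbered 78 (without array 1) and 101 (without array 2) with diet, of which 19.2% and 80.2% were higher, against 65.2% with both, and 563 and 565 between strains. Of the pathway lists, calls changed for Lcn2 (higher) and Avpr1a (lower) in the strain comparison and Sult1c2 (higher) in the diet comparison with processed signals, and for Mfsd2a (lower in SAMP8) under median centring. Of the markers, processed signals added calls of Umod, Alb and Gh (higher) and Ngp (lower) with diet, and of Ngp (higher), Slc34a1 and Cyp2e1 (lower) between strains. Causes were not tested. No paired analysis was possible because no test was run: the arrays of a pair are 1 replicate, and their numbers follow the order of deposit and pair nothing.

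Each group is 1 RNA, so no value carries the spread between mice, and a strain or diet ratio cannot be told apart from a difference between the animals sampled. Errors cover dye orientation only. Differences of 1.5-fold were mostly not called in simulated arrays. Sgk1, Plin4, Sult1a1, Ddit4 and Hsd11b1 rest on 1 probe each, with signals far above background.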

Other observations

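Close relatives of the glucocorticoid genes were also read. Of 20 measured paralogs, 0 were called with diet (median 0.01), and of 18 measured between strains 0 were called (median −0.02). Under median centring the medians were 0.14 and −0.06, with 9 of 18 below 0 on both strain arrays, and with processed signals Sult1c2 was called higher with diet. Plin2, the perilipin of most cells, had the largest strain ratio, with intensities of 3233 and 3245 in SAMP8 against 2391 and 2206 in SAMR1. Its log2 ratio was 0.50 ± 0.09, where Plin4 stood at −1.48. Ddit4l, the relative of Ddit4, followed at 0.25 ± 0.15, with its other probes at 0.23 and 0.56. With diet the largest were Sult1c2, a sulfotransferase (0.36 ± 0.20), and Zbtb7a, a transcriptional repressor (0.13 ± 0.08, other probe −0.10).

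The log2 ratios of Tsc22d3 followed the dye as well as the RNA. The part of the ratio that changed sign with the dye was −0.19 and −0.18 for its probes on the diet arrays and −0.14 and −0.15 on the strain arrays. The diet mean of its brightest probe, 0.15, was smaller than that dye part, and for Sgk1 the dye parts were −0.01 and −0.04. Dye parts beyond 0.1 in size also occurred for Plin4 with diet (0.11). Between strains they occurred for the brightest Fkbp5 probe (−0.12) and a dimmer Nr3c1 probe (0.11).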
